A study of Mus musculus with 72 samples.

Results

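Transcripts of 6 genes of hormone signalling, Fgf21, Gdf15, Inhbe, Angptl4, Klb and Lepr, were followed by RNA sequencing in C57BL/6J mice, in liver and in the suprachiasmatic nucleus (SCN), the site of the central circadian clock in the hypothalamus. The genes were chosen by symbol and are 6 of the 24091 genes listed in a gene count table of either tissue. All 6 were among the 22823 genes listed for liver, and Klb and Angptl4 were the 2 among the 15759 listed for SCN. Mice ate a diet lacking methionine and choline (MCD) or an isocaloric control diet for 11 days. They lived in light and dark for 10 days, and on the last day, in constant darkness, mice were killed at circadian time (CT) 0, 4, 8, 12, 16 or 20 h. The 72 libraries fell into 24 groups of tissue, diet and time, each with 2 libraries labelled male (replicates 1 and 2) and 1 labelled female (replicate 3). The protocol text describes single-housed male mice aged 8 to 12 weeks and gives no age for females. All groups shared the strain, the 11-day feeding period and the dark last day, and none carried a transgene in the labels. Liver was a whole piece of the left lobe, with all its cell types, and the SCN was cut out of brain sections by laser.

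FGF21 is a hormone that the liver secretes under amino acid shortage, fasting and organelle stress. It binds beta-klotho, the product of Klb, which presents it to FGF receptors, and beta-klotho in the liver itself also serves the gut hormone FGF15. GDF15 is a stress-induced hormone read by the receptor GFRAL in the brainstem, where it lowers food intake. Inhbe encodes the subunit of activin E, a hepatocyte protein that restrains fat breakdown in adipose tissue. Angptl4 encodes a secreted inhibitor of lipoprotein lipase, and Lepr encodes the receptor of the fat hormone leptin, whose long form signals and whose short forms have truncated tails. The transcription factor ATF4, which is translated when amino acids run short, acts on Fgf21 and Gdf15, and PPAR alpha acts on Fgf21 and Angptl4.

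Gene counts in liver libraries summed to 52.6 to 86.7 M (mega-counts), with a median of 64.4 M, and in SCN libraries to 23.3 to 79.8 M, with a median of 57.0 M. Levels are given in CPM, counts relative to the library total, with libraries scaled to each other by the TMM method. In both gene tables, 2 control columns at CT08 carried the same name, and they were kept as replicates a (the deeper) and b. Fits of gene counts without the libraries numbered 1 or 2 therefore kept both. In both tissues the exon-bin file of control CT08 replicate 1 correlated best with column a, and that of replicate 2 with column b. In liver, replicate a of that group stood apart from the other 17 controls for Fgf21 and Gdf15. Among the controls it also had the highest summed macrophage, stellate cell, and lymphocyte and neutrophil markers, and the lowest sums for the FGF, activin, angiopoietin-like and transcription factor lists described further on. The control levels and mean diet effects of the 6 genes in liver are also given without it. In SCN, 3 shallow libraries, control CT20 replicate 3, MCD CT04 replicate 3 and control CT04 replicate 3, listed 804, 767 and 538 genes at 0, against a median of 33 over all 36. The markers of the labelled tissues were listed: all 8 SCN markers were listed in the SCN table, with a summed level of 1682 to 4291 CPM, while 1 of 6 hepatocyte markers was listed there. The lowest total of any gene was 1410 counts in the SCN table and 41 in that of liver, so a gene not listed for SCN is not shown to be at 0. Of the 8 SCN markers 2 were listed for liver, Lhx1 and Rgs16, with a summed level of 7.31 to 473 CPM on the control diet and 31.5 to 332 CPM on MCD. The 6 hepatocyte markers summed to 60229 to 122776 CPM in liver.

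The promoter of Fgf21 is shown first, because Fgf21 rose most and its window holds a match to the C/EBP-ATF response element, a motif bound by ATF4 with C/EBP partners. The window covers the 250 bases before the RefSeq start of Fgf21, build GRCm38.p6, chr7:45615491-45615740, minus strand, and capitals mark the motif matches.

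Fgf21: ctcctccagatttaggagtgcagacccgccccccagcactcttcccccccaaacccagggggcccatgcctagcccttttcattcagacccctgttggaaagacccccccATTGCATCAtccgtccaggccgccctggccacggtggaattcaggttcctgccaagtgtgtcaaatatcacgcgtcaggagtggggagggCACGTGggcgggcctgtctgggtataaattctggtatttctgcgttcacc

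The first capitals, 140 to 132 bases before the start, match the element TGATGNAAN on the opposite strand and hold its core TTGCATCA. The second capitals, 50 to 45 bases before the start, are an E-box, CACGTG. Inhbe held a match to the same element and core, here with the neighbouring bases, chr10:127352011-127352040 of GRCm38.p6, minus strand, 192 to 163 bases before its RefSeq start. In GENCODE M21, from which the positions of genes and bins are taken, this stretch is not upstream of Inhbe but inside its exon bin 2 (chr10:127351248-127354411, GRCm38).

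Inhbe: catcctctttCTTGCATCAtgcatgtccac

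Both strands were searched. Of 32851 RefSeq promoter windows of 250 bases, 3.44% held TGATGNAAN, 0.791% held TTGCATCA and 6.02% held CACGTG, and the first 2 motifs overlap. A repeat of AGGTCA with 1 base between its 2 copies, the form bound by PPAR, was in 0.0335% of windows, and TTANGTAA, the D-box of circadian PAR bZIP factors, in 2.06%. Windows were found for 5 of the 6 members. Neither window of Lepr nor that of Klb held any of the 5 motifs, and of the 2 windows of Gdf15, 1 held an E-box. These are matches of letters in a window, not measured binding.

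Lepr is shown by the ends of its 3 coding forms in GENCODE M21 (GRCm38), because exon counts can separate them. The forms share 889 codons and then diverge, and capitals mark the bases that belong to 1 form.

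Lepr-201: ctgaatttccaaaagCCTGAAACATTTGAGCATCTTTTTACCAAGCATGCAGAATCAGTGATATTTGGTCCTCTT

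Lepr-202: ctgaatttccaaaagGTCACTGTTTAA

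Lepr-203: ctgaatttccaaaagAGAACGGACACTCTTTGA

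Lepr-201 is the long form of 1162 codons, of whose own 822 coding bases the first are shown. Lepr-202 and Lepr-203 are short forms of 892 and 894 codons that reach a stop within the capitals. The gene lies at chr4:101717404-101815352 (GRCm38, plus strand).

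All 6 genes differed between the diets in liver on average over the 6 times: Fgf21, Gdf15, Inhbe, Angptl4 and Lepr rose on MCD and Klb fell. At an adjusted p below 0.05 in edgeR (quasi-likelihood, Benjamini-Hochberg), the comparison called 46.6% of the 20249 liver genes tested, 25.3% higher and 21.2% lower, and 48.6% of 20669 without control CT08 replicate a. A call alone therefore sets a gene little apart here, and the sizes are given. Genes are compared per kilobase of exon, with exon lengths as annotated in GENCODE M21. On this scale control levels (n = 18) were highest for Angptl4 at 14.5 ± 8.69 CPM per kb (SD), followed by Inhbe at 9.47 ± 3.16, Klb at 8.67 ± 2.25 and Lepr at 4.59 ± 2.81. Fgf21 and Gdf15 were lowest, at 2.37 ± 3.91 and 1.19 ± 1.19 CPM per kb, or 1.48 ± 1.03 and 0.922 ± 0.415 without control CT08 replicate a (n = 17). Without that library the other levels were 14.5 ± 8.95 CPM per kb for Angptl4, 9.36 ± 3.21 for Inhbe, 8.79 ± 2.26 for Klb and 4.58 ± 2.90 for Lepr, in the same order. In CPM they were 51.2 ± 31.7 for Angptl4, 49.8 ± 17.1 for Inhbe, 39.97 ± 10.3 for Klb and 32.3 ± 20.4 for Lepr. On MCD, Fgf21 led at 48.4 ± 38.6 CPM per kb, ahead of Angptl4 at 24.7 ± 7.60 and Inhbe at 16.1 ± 5.52, and the spread of Fgf21 exceeded its distance from both. At MCD CT08 Fgf21 stood at 15.7 ± 1.18 CPM per kb, with a mean below those of Inhbe at 18.9 ± 5.17 and Angptl4 at 27.2 ± 2.36 (n = 3). Over all MCD libraries Gdf15 at 8.04 ± 3.91, Klb at 6.82 ± 2.18 and Lepr at 6.51 ± 3.17 lay within their spread of each other. On the control diet Angptl4, Inhbe and Klb lay within their spread of each other as well. The length used for Inhbe, 5319 bases, includes exon sequence that lies before its RefSeq start. A shorter length would raise each per-kb level of Inhbe, so its place relative to Angptl4 and the other genes depends on the annotation. In whole tissue, fewer cells of a type and less RNA per cell cannot be told apart.

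**Figure D1:**
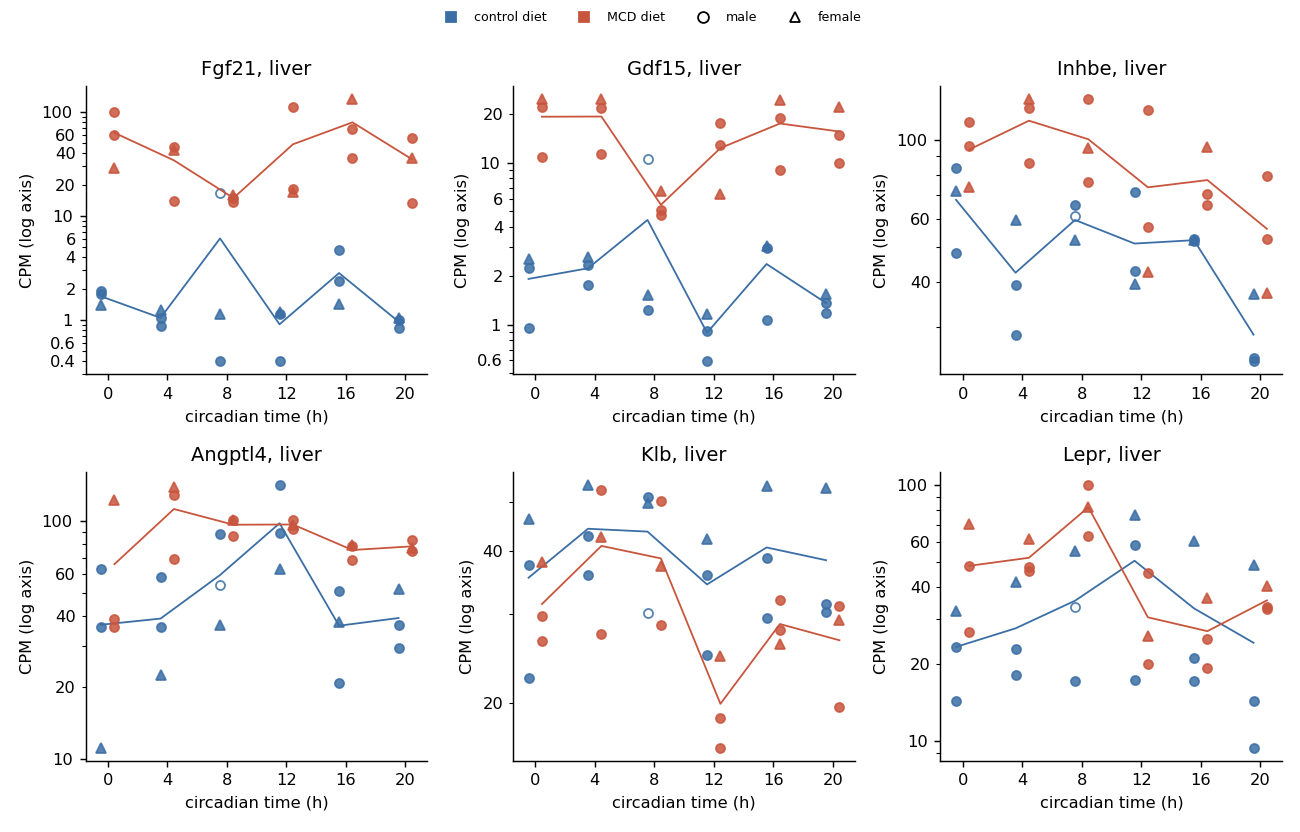
Level of the 6 genes in each of 36 liver libraries (CPM, log axis) against circadian time (h); circles are males, triangles females, lines join group means (n = 3), and the open circle is control CT08 replicate a. For Fgf21 and Gdf15 that library lies among the MCD libraries, and the other 17 controls lie below all 18 MCD libraries.

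Fgf21 (chr7:45613886-45615490, GRCm38, minus strand) was at 0.401 to 4.68 CPM in 17 control livers and at 16.7 CPM in control CT08 replicate a. On MCD it was at 60.7, 99.7 and 29 CPM at CT00 and at 45.8, 14.1 and 43.0 CPM at CT04 (replicates 1, 2 and 3). It was at 14.9, 13.8 and 16.0 CPM at CT08 and at 112, 18.3 and 16.8 CPM at CT12. At CT16 it was at 35.7, 68.7 and 134 CPM, and at CT20 at 13.3, 56.2 and 35.9 CPM. Replicates of 1 group differed widely at CT12, where replicate 1 stood far above the others, while the 3 libraries of CT08 were close together and low. The mean over all libraries was 46.0 ± 36.7 CPM on MCD.

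The diet effect on Fgf21 was 4.56 ± 0.41 log2 (SE), a 23.5-fold rise (edgeR adjusted p = 3.01e-09). Without control CT08 replicate a it was 5.02 ± 0.35 log2, 32.5-fold (adjusted p = 5.06e-11). With all libraries, control CT08 replicate a was the 1 control of 18 above the lowest MCD library. Without it none of 17 controls reached any MCD library, which was so, with MCD the higher, for 0.691% of all genes tested, and for 0.0889% with all libraries in place.

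Gdf15 (chr8:70629393-70632456, GRCm38, minus strand) was at 0.594 to 3.07 CPM in 17 control livers, lowest at CT12 with 0.908, 0.594 and 1.17 CPM, and at 10.5 CPM in control CT08 replicate a. On MCD it was at 22.1, 10.8 and 24.8 CPM at CT00, at 21.8, 11.4 and 24.7 CPM at CT04 and at 5.09, 4.73 and 6.65 CPM at CT08. At CT12, CT16 and CT20 it was at 12.8, 17.6 and 6.44, at 9.0, 19.0 and 24.4, and at 9.89, 14.9 and 21.9 CPM. As for Fgf21, the libraries of MCD CT08 were the lowest group, and without control CT08 replicate a the diets did not overlap. Gdf15 rose by 2.81 ± 0.25 log2, 7.01-fold (edgeR adjusted p = 2.27e-09), and by 3.11 ± 0.18 log2, 8.64-fold, without that library (adjusted p = 1.09e-12).

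Single times differed in how the 6 genes were called. Of all genes tested, the share called was 12.6% for CT00, 18.2% for CT04, 1.3% for CT08, 15.2% for CT12, 12.5% for CT16 and 11.3% for CT20. Fgf21 and Gdf15 were called at 5 of 6 times, all but CT08. The effect on Fgf21 was between 4.92 ± 1.00 log2 at CT16 and 5.68 ± 1.06 log2 at CT12 at those times, with edgeR adjusted p of 0.00126 to 0.00234. That on Gdf15 was between 2.87 ± 0.61 log2 at CT16 and 3.86 ± 0.65 log2 at CT12, with adjusted p of 0.000627 to 0.00311. At CT08 the effects were 1.33 ± 0.86 log2 for Fgf21 (adjusted p = 0.58) and 0.21 ± 0.57 log2 for Gdf15 (adjusted p = 0.949). Without control CT08 replicate a both were called at CT08 as well, with 4.19 ± 0.95 log2 (adjusted p = 0.00894) and 2.05 ± 0.49 log2 (adjusted p = 0.0123), among 5.86% of genes called. Leaving out the libraries of 1 replicate number ended each of the 10 single-time calls of Fgf21 and Gdf15 for at least 1 number (adjusted p = 0.0561 to 0.131), with effects still at 2.43 log2 or more. The fits without number 1 or 2 still held control CT08 replicates a and b, whose columns carry no such number. Leaving out any 1 library ended none of them.

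**Figure D2:**
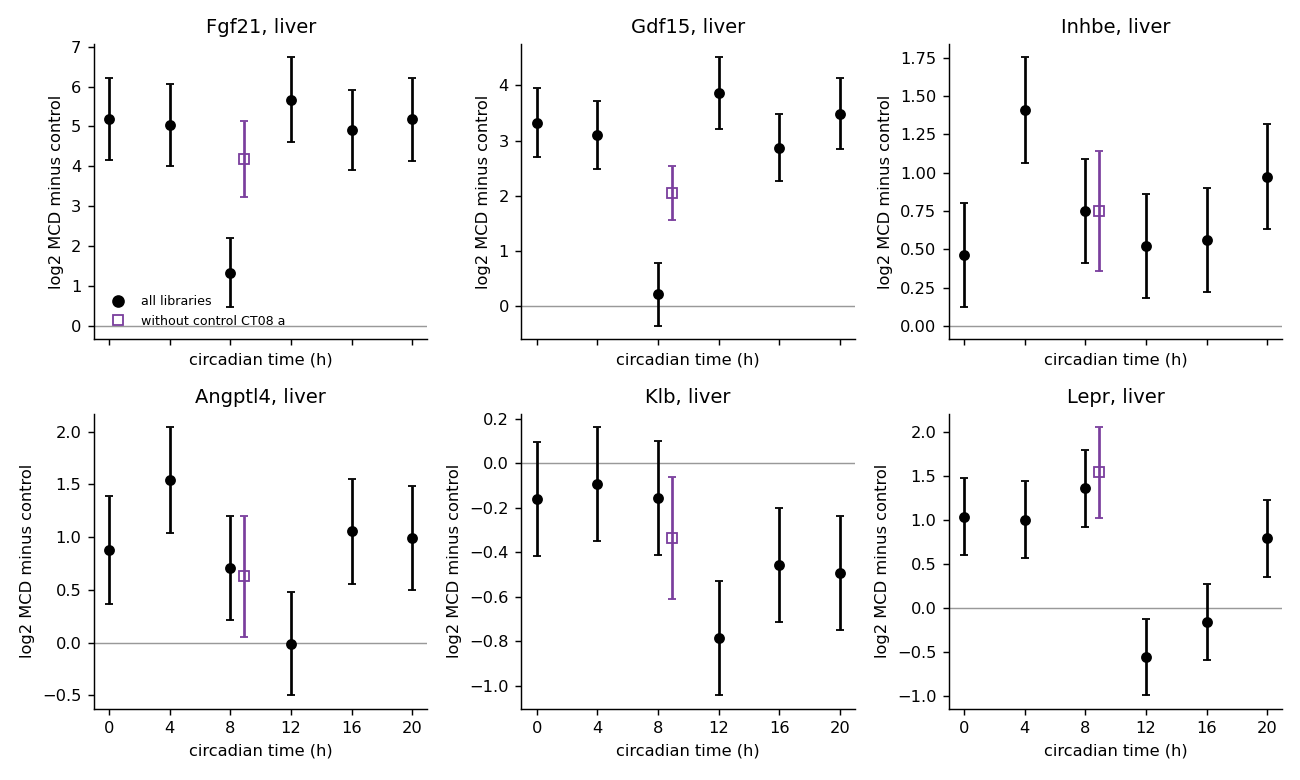
Diet effect on each gene in liver (log2 MCD minus control, with its standard error) at each circadian time (h), from the fit of all 36 libraries (filled circles) and, at CT08, without control CT08 replicate a (open squares). Leaving out that library moves the CT08 effect of Fgf21 from 1.33 to 4.19 and of Gdf15 from 0.21 to 2.05, while the other 4 genes move by less than their error.

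Fgf21 and Gdf15 went together across libraries. The Pearson correlation of their log2 CPM was 0.926 over the 36 liver libraries, which fall into 2 clusters by diet. It was 0.585 within the 18 MCD libraries, 0.754 within the 18 controls, and 0.667 on what was left after the group means and sex were removed. Without control CT08 replicate a it was 0.926 over 35 libraries, 0.479 within 17 controls and 0.363 with group means and sex removed. Among 13840 genes of at least 1 CPM on average, those most like Fgf21 were Atf3, a stress-induced transcription factor (r = 0.940), Chpf, an enzyme of chondroitin synthesis (r = 0.929), and Gdf15. Those most like Gdf15 were Atf3 (r = 0.952), Chpf (r = 0.942) and Arhgef2, a guanine nucleotide exchange factor (r = 0.929). Without that library Atf3 and Chpf were again the first and second of both genes. With group means and sex removed, the genes most like Fgf21 were Eaf1 (r = 0.739), Actb and Sf3a2 with all libraries and Atf4 (r = 0.758), Spty2d1 and Cul5 without it. Those most like Gdf15 were Ywhah (r = 0.815), Cc2d1a and Chpf with all libraries and Tm9sf4 (r = 0.760), Sema5a and Fto without it. All points share their libraries, and these correlations are descriptions.

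**Figure D3:**
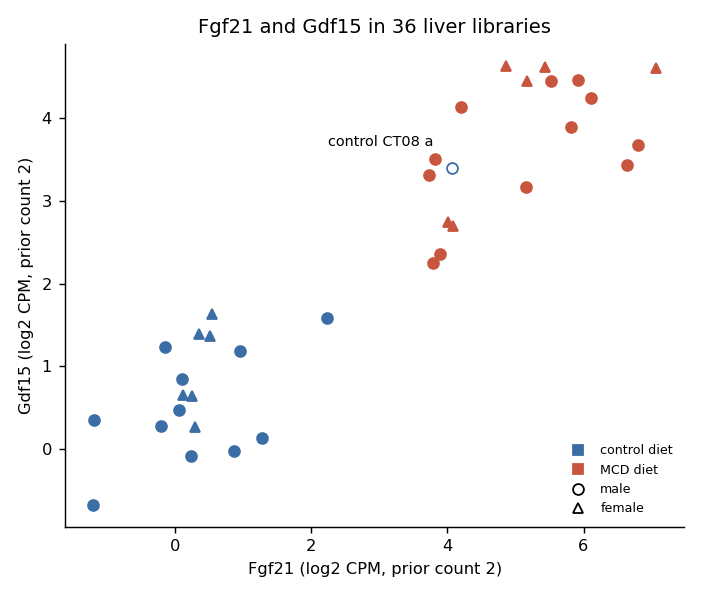
Gdf15 against Fgf21 in the 36 liver libraries (log2 CPM with a prior count of 2 on both axes), coloured by diet, with circles for males and triangles for females. The diets form 2 clusters, and the library labelled control CT08 a (open circle) lies in that of the MCD libraries.

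Inhbe (chr10:127348857-127354411, GRCm38, minus strand) lies over an antisense gene, Gm47200, and no source used here states whether counting used the strand, so its reads cannot be told apart from those of that gene. It was at 24.0 to 83.7 CPM on the control diet and 37.3 to 130 CPM on MCD, with means of 50.4 ± 16.8 and 85.8 ± 29.4 CPM (SD, n = 18 each). At CT04 the controls were at 39.3, 28.4 and 59.8 CPM and the MCD livers at 85.9, 123 and 130 CPM, with no overlap, as for 17.2% of all genes in this direction at that time. Inhbe rose by 0.78 ± 0.14 log2 (1.72-fold, edgeR adjusted p = 5.2e-05; 0.77 ± 0.15 log2 without control CT08 replicate a). Among single times edgeR called CT04, at 1.41 ± 0.34 log2 (adjusted p = 0.00594), and this was lost without control CT04 replicate 2 (adjusted p = 0.0502) and without the libraries numbered 1 (adjusted p = 0.0717) or 2 (adjusted p = 0.0971). At CT20 the effect was 0.97 ± 0.34 log2 (adjusted p = 0.0661). DESeq2 called that time (adjusted p = 0.0275), as did edgeR with library totals (adjusted p = 0.0182) or without MCD CT12 replicate 1 or 3, MCD CT20 replicate 3 or control CT20 replicate 3 (adjusted p = 0.0369 to 0.0477), and without all libraries numbered 3 (1.42 log2, adjusted p = 0.0313). With all libraries the effect was positive at the 6 times, from 0.46 to 1.41 log2, but at CT12 its sign turned without MCD CT12 replicate 1 or without the libraries numbered 1 (-0.15 log2). Genes most like Inhbe were Ltbr (r = 0.806), Cenpb and Fbxw9.

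Angptl4 (chr17:33773750-33781830, GRCm38, minus strand) was at 11.2 to 141 CPM on the control diet and 36 to 138 CPM on MCD, with means of 51.3 ± 30.8 and 87.4 ± 26.9 CPM (SD, n = 18 each). It rose by 0.86 ± 0.20 log2 (1.82-fold, edgeR adjusted p = 0.00115; 0.84 ± 0.21 without control CT08 replicate a, and 0.51 without the libraries numbered 3, adjusted p = 0.0239). The highest controls were those of CT12, at 141, 88.9 and 62.9 CPM, and MCD livers at CT12 were at 92.7, 101 and 95.8 CPM. The diets overlapped there, and the effect at CT12 was -0.01 ± 0.49 log2. At CT04 controls were at 58.3, 35.8 and 22.5 CPM and MCD livers at 69.2, 129 and 138 CPM, the 1 time called (1.54 ± 0.50 log2, adjusted p = 0.0341). That call was lost when either of 2 MCD or 2 control libraries of CT04 was left out (adjusted p = 0.0816 to 0.144), with a term for kind of library (low or high in the mitochondrial transcript mt-Nd6) (1.36 log2, adjusted p = 0.0640), and without the libraries numbered 1 (adjusted p = 0.0988), 2 (adjusted p = 0.229) or 3 (adjusted p = 0.102). Klhl21 (r = 0.789), Sun2 and Lgals4 were most like Angptl4.

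Klb (chr5:65348314-65384007, GRCm38, plus strand) fell by 0.36 on the log2 scale (SE 0.10; edgeR adjusted p = 0.00654), to 0.781 times its control level. Without control CT08 replicate a the effect was -0.40 ± 0.10 log2 (adjusted p = 0.00233). Its levels were 22.4 to 53.9 CPM on the control diet and 16.3 to 52.8 CPM on MCD, with means of 39.4 ± 10.2 and 31.0 ± 9.92 CPM (SD, n = 18 each), so most libraries overlapped. At CT12, the 1 time without overlap, controls were at 35.8, 24.9 and 42.3 CPM and MCD livers at 18.7, 16.3 and 24.8 CPM, and 14.2% of all genes lay lower on MCD without overlap at that time. The effect there was -0.79 ± 0.26 log2 (adjusted p = 0.0397), a call lost when any of 3 MCD or 2 control libraries of CT12 was left out (adjusted p = 0.0546 to 0.156). It was also lost with library totals (-0.42 log2, adjusted p = 0.158), without a sex term (adjusted p = 0.0853) and without the libraries of any 1 number (adjusted p = 0.110 to 0.245). With library totals as the only scaling, the mean effect was -0.11 log2 (adjusted p = 0.347), a scaling under which the median over all genes was 0.27 log2, against 0.02 log2 with TMM. The mean effect was also lost without the libraries numbered 1 (-0.31 log2, adjusted p = 0.0834) or 3 (-0.24 log2, adjusted p = 0.211). Genes most like Klb were Cmtm8 (r = 0.787), Klhl3 and Ctso.

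Lepr rose by 0.58 ± 0.18 log2 (1.49-fold, edgeR adjusted p = 0.00985; 0.60 ± 0.19 without control CT08 replicate a). It was at 9.43 to 76.5 CPM on the control diet and 19.3 to 100.01 CPM on MCD, with means of 32.4 ± 19.8 and 45.9 ± 22.3 CPM (SD, n = 18 each). At CT08 the MCD livers held 63.4, 100.01 and 82.5 CPM and the controls 33.5 (a), 17.1 (b) and 55.4 CPM. The order of the means was turned at CT12 and CT16. At CT12 there were 58.3, 17.3 and 76.5 CPM in controls and 45.6, 20.1 and 25.7 CPM on MCD, and at CT16 the means were 33.0 ± 24.1 and 26.9 ± 8.70 CPM (SD, n = 3 each). With TMM scaling edgeR called no single time: effects were 1.36 ± 0.44 log2 at CT08 (adjusted p = 0.144) and -0.56 ± 0.43 log2 at CT12 (adjusted p = 0.416; -1.19 without MCD CT12 replicate 1 and -0.14 without control CT12 replicate 1), DESeq2 called CT08 (adjusted p = 0.0336), edgeR with library totals called CT00 (1.29 log2, adjusted p = 0.0426) and CT04 (1.31 log2, adjusted p = 0.0304), and 3 of 6 times, CT00, CT04 and CT08, had an unadjusted p below 0.05, as did 25.7%, 31.3% and 12.6% of all genes. The mean effect was lost without the libraries numbered 1 (adjusted p = 0.0541) or 2 (0.33 log2, adjusted p = 0.242) and without the sex term (0.45 log2, adjusted p = 0.125). Tox (r = 0.859), the metallothionein Mt2 (r = 0.796) and Enpp1 (r = 0.791) were most like Lepr.

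Lepr and Klb differed between the sexes in liver, in a test chosen after the values were seen. Replicate number 3 and female sex cannot be told apart here. On the control diet Lepr was at 52.6 ± 15.4 CPM in 6 females (32.3 to 76.5) and 22.2 ± 12.8 CPM in 12 males (9.43 to 58.3), and on MCD at 52.9 ± 22.1 and 42.4 ± 22.6 CPM. Klb was at 49.9 ± 4.77 CPM in control females and 34.2 ± 7.89 CPM in control males, and at 33.0 ± 7.25 and 30.1 ± 11.2 CPM on MCD. Without control CT08 replicate a the control males (n = 11) were at 21.2 ± 12.9 CPM for Lepr and 34.6 ± 8.17 CPM for Klb. The female minus male difference was 0.84 ± 0.19 log2 for Lepr (edgeR adjusted p = 0.00355; 0.86 without control CT08 replicate a) and 0.36 ± 0.11 log2 for Klb (adjusted p = 0.0341), among 9.44% of genes called (1911, falling to 664 without the libraries numbered 1, and by over 1.5 times without those numbered 2). For Klb the call was lost when any of 14 single libraries was left out and without the libraries numbered 1 (0.31 log2, adjusted p = 0.261), and for Lepr only without the libraries numbered 2 (adjusted p = 0.0532).

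Whether the diet effect itself differed between the sexes was tested with an interaction term, which called 1.77% of genes and none of the 6. At an unadjusted p below 0.05 there were 2, Lepr and Angptl4, and 12.3% of all genes, and neither DESeq2 nor limma called any. The female minus male difference in diet effect was -0.94 ± 0.33 log2 for Lepr (adjusted p = 0.177) and 1.05 ± 0.39 log2 for Angptl4 (adjusted p = 0.223). Angptl4 was at 37.1 ± 18.8 CPM in control females and 102 ± 24.3 CPM in MCD females (n = 6 each), and at 58.4 ± 33.7 and 79.9 ± 25.9 CPM in males (n = 12 each), the control males being at 58.9 ± 35.3 CPM without control CT08 replicate a (n = 11). Neither passed after adjustment over all genes.

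**Figure D4:**
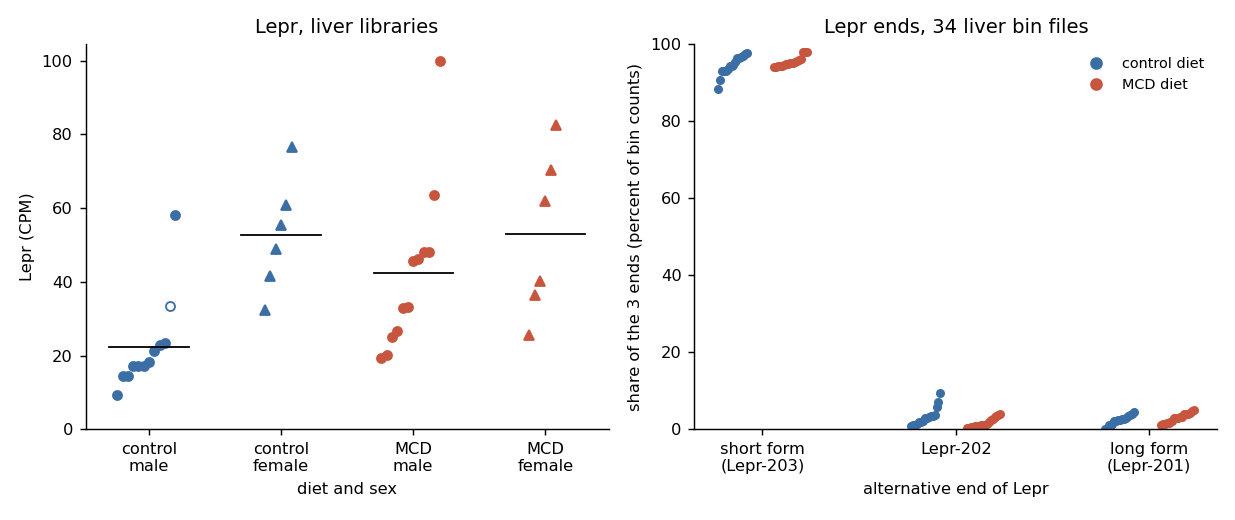
Left, Lepr in liver (CPM) by diet and sex, with group means as bars (12 male and 6 female libraries per diet) and the open circle for control CT08 replicate a. Right, the share of each alternative end among the counts of the 3 Lepr ends (percent) in 34 liver libraries, where the short form Lepr-203 takes 88.4% to 98.0%.

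The time of day was tested as a 24 h wave through the 6 group means of a diet. On the control diet 17.8% of liver genes were called rhythmic and none of the 6, with Lepr (edgeR adjusted p = 0.0987) and Angptl4 (adjusted p = 0.104) the nearest. Those 2 had an unadjusted p below 0.05, as did 31.5% of all genes, DESeq2 called both, and limma called none. With edgeR, Lepr was called without control CT12 replicate 2 (adjusted p = 0.0332) or control CT20 replicate 3 (adjusted p = 0.0279), and Angptl4 without control CT00 replicate 2 (adjusted p = 0.0309) or without the libraries numbered 3 (adjusted p = 0.0359). The control wave of Angptl4 had a range of 1.18 log2 and peaked at 10.9 ± 1.36 h. On MCD 28.2% of genes were called, Klb with a range of 0.74 log2 (adjusted p = 0.0267; peak 3.59 ± 1.42 h) and Lepr with 1.32 log2 (adjusted p = 0.0195; peak 4.92 ± 0.99 h) among them. The Klb call was lost without MCD CT04 replicate 2 (adjusted p = 0.135) or MCD CT16 replicate 3 (adjusted p = 0.0955), and both calls without any of the 3 replicate numbers or without the sex term. Inhbe had a range of 0.81 log2 on MCD (edgeR adjusted p = 0.0755, with an unadjusted p below 0.05 as for 38.7% of all genes). DESeq2 called it (adjusted p = 0.0279), as did edgeR with a term for the kind of library (adjusted p = 0.0293) or without MCD CT04 replicate 1, MCD CT12 replicate 1 or MCD CT20 replicate 2 (adjusted p = 0.0153 to 0.0492).

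Gdf15 had a range of 1.20 log2 on MCD with an adjusted p of 0.131, and of 1.17 log2 with an adjusted p of 0.0200 without control CT08 replicate a, when 30.2% of genes were called. With all libraries limma called it (1.25 log2, adjusted p = 0.0315). It was also called with the replicate block (1.17 log2, adjusted p = 0.0236) and without both same-named control CT08 libraries (1.18 log2, adjusted p = 0.0229), fits that both leave replicate a out. That library is labelled control, not MCD, and why leaving it out changed the edgeR call was not tested. The wave of Fgf21 on MCD had a range of 1.46 log2 (adjusted p = 0.256). The wave differed between the diets for 4.87% of genes and for none of the 6. Gdf15 and Lepr had an unadjusted p below 0.05, as did 19.9% of all genes, DESeq2 called Lepr (adjusted p = 0.0269) among 2060 genes, and limma called none. Lepr was nearest, with an adjusted p of 0.123, and 0.0353 without MCD CT12 replicate 1.

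The genes that act with the 6 were described by lists. Their counts stand against the 46.6% of all liver genes called, 25.3% higher and 21.2% lower, and the counts for the activin, angiopoietin-like and leptin receptor lists lay near that share. Of 7 FGF ligand and receptor genes tested in liver, 2 rose and 2 fell (median 0.04 log2, against 0.02 over all genes): the metabolic growth factor Fgf1 fell by 0.62 log2 (edgeR adjusted p = 0.00106), Fgfr3 by 0.22 (adjusted p = 0.0345), and Fgfr1, the main partner of beta-klotho outside the liver, rose by 0.27 (adjusted p = 0.0103). Fgfr4, the liver's main FGF receptor, differed by -0.12 ± 0.07 log2 (adjusted p = 0.182) and is named here after its value was seen. The direction of Fgfr3 turned with library totals as the only scaling (0.039 log2), and its call was lost without the libraries numbered 1 or 3 or any of 5 single controls (adjusted p = 0.0542 to 0.208), namely CT04 replicate 2, CT08 replicate b, CT12 replicate 1, CT16 replicate 3 and CT20 replicate 3. That of Fgfr1 was lost without the libraries numbered 1 (adjusted p = 0.0911) or 3 (adjusted p = 0.127) and without the sex term (adjusted p = 0.0566), and that of Fgf1 without those numbered 3 (adjusted p = 0.0565). Of 4 genes for the receptor and processing of GDF15, 2 rose and 1 fell (median 0.11): Mmp14, a protease that can cut its receptor, by 0.40 log2 (adjusted p = 0.000293), the proprotein protease Furin by 0.26 (adjusted p = 4.81e-06), and Pcsk6 by -0.18 (adjusted p = 0.0022; 0.07 with library totals). Gfral and Ret, the receptor pair of GDF15, were not among the genes listed for liver.

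Of 11 activin subunits, inhibitors and receptors, 3 rose and 2 fell (median 0.09): Fst, a secreted activin trap, fell by 1.10 log2 (adjusted p = 0.000479), the signal inhibitor Smad7 rose by 0.70 (adjusted p = 0.000485) and the receptor Acvr2b fell by 0.52 (adjusted p = 0.00333). The Acvr2b call was lost without the libraries numbered 1 or 2 (adjusted p of up to 0.0903) and with library totals (-0.26 log2, adjusted p = 0.104). Of 11 angiopoietin-like proteins and lipase genes, 2 rose and 3 fell (median 0.07). Angptl8, an insulin-responsive partner of this family, rose by 2.26 log2 (adjusted p = 6.46e-07), Lpl, the lipase that ANGPTL4 inhibits, rose by 1.44 (adjusted p = 0.000127), and hepatic lipase Lipc fell by 0.81 (adjusted p = 2.06e-08). Of 9 genes of leptin receptor signalling, 3 rose and 1 fell (median 0.02), with Stat5b lower by 0.42 log2 (value -0.42, adjusted p = 1.93e-06), and Leprotl1 and Leprot, which act on receptor trafficking, higher by 0.30 and 0.25. The Leprot call was lost without the libraries numbered 1 (adjusted p = 0.0642).

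Of 18 other hormones and secreted carriers from the liver, 10 rose and 3 fell (median 0.22). The secreted protein Tsku rose by 1.94 log2 (adjusted p = 9.52e-09), the IGF-binding protein Igfbp1 by 1.76 (adjusted p = 1.14e-05), and Igf1, the growth hormone effector, fell by 1.13 (adjusted p = 2.08e-10). Of 16 transcription factors known to act on Fgf21, Gdf15 or Angptl4, 6 rose and 3 fell (median 0.12). Atf3 rose by 3.78 log2 (adjusted p = 8.14e-10), the stress factor Ddit3 by 1.48 (adjusted p = 4.72e-09) and Pparg, the fat cell regulator, by 1.12 (adjusted p = 2.89e-06). With library totals as the only scaling, 7 of the genes named from these lists kept their calls but moved by over 1.5 times: Stat5b to -0.16, Fgf1 to -0.36, Furin to 0.52, Leprot to 0.51, Leprotl1 to 0.55, Fgfr1 to 0.54 and Mmp14 to 0.65 log2. These lists were drawn up with earlier results of these data known.

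Markers of other cell types are given beside the 46.6% of all genes called, 25.3% higher and 21.2% lower. Of 9 macrophage markers tested, 8 were higher on MCD, among them Trem2 by 2.39 log2 and Marco by 2.11 log2. Their summed level was 282 to 691 CPM in controls, the highest being control CT08 replicate a, and 377 to 829 CPM on MCD. Of 6 lymphocyte and neutrophil markers 2 were higher, S100a8 and S100a9, and 4 were not called (list median -0.0087 log2). Of 9 stellate cell markers 2 were higher and 1 lower, of 7 endothelial markers 3 were higher, of 5 cholangiocyte markers 1 was higher, and of 5 red cell genes 4 were lower. Of 6 hepatocyte markers 3 were lower and none higher, with a summed median of 100111 CPM on the control diet and 103460 CPM on MCD. The part of these cells in the levels of the 6 genes was not tested. Low or high mt-Nd6 splits the livers into a low and a high kind, and the kinds were unevenly spread over the diets. The low kind held 13 MCD and 8 control livers and the high kind 5 and 10. The high kind had no MCD liver at CT16, and the 1 control liver of CT08 in the low kind was replicate a. Each kind was fitted with 1 diet effect common to its times. The effects rest on 6 times in the low kind, or 5 without control CT08 replicate a, and on 5 in the high kind. Within the 21 livers of the low kind, the effect on Fgf21 was 4.56 log2 and on Gdf15 2.80 log2, or 5.35 and 3.52 log2 without control CT08 replicate a, where Angptl4 lost its call (0.79 log2, adjusted p = 0.0627). Within the 15 of the high kind it was 4.85 and 2.90 log2. Inhbe was also called in both kinds (0.58 and 0.95 log2), while Angptl4 was not called in the high kind (0.43 log2, adjusted p = 0.225), Klb not in the high kind (-0.36 log2, adjusted p = 0.159) and Lepr in neither (0.16 and 1.20 log2). Of the 21 liver genes named from the lists above, 10 lost their call within 1 or both kinds: Lpl (adjusted p = 0.0978), Fgf1 (0.154), Mmp14 (0.145), Pcsk6 (0.15) and Leprot (0.159) in the low kind, Furin (0.176), Leprotl1 (0.0796) and Acvr2b (0.258) in the high kind, and Fgfr1 and Fgfr3 in both.

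In the SCN Klb had a steep daily course on both diets. Controls were at 2.74, 2.42 and 2.62 CPM at CT00, at 10.3, 4.09 and 11.5 CPM at CT04, and at 8.49 (a), 6.57 (b) and 10.6 CPM at CT08. They were at 10.1, 7.14 and 5.68 CPM at CT12, at 3.02, 1.54 and 2.29 CPM at CT16, and at 1.97, 1.69 and 0.381 CPM at CT20. On MCD the values were 2.76, 1.98 and 2.48 CPM for CT00 and 7.65, 6.01 and 8.14 CPM for CT04. Next came 8.58, 11.1 and 10.7 CPM for CT08 and 6.28, 7.0 and 5.43 CPM at CT12. They were 2.94, 2.32 and 3.27 CPM at CT16 and 1.89, 1.21 and 1.32 CPM at CT20. Every library of CT04, CT08 and CT12 lay above every library of CT00, CT16 and CT20, on both diets. This split of the times was taken from the values of Klb, and 0.127% of the SCN genes tested separated in the same way.

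The 24 h wave of Klb in SCN had a range of 2.92 log2 on the control diet (edgeR adjusted p = 3.63e-07) and 2.77 log2 on MCD (adjusted p = 7.97e-07). Of 15759 genes 15.1% and 16.1% were called, respectively. The fitted peaks were at 7.78 ± 0.56 h and 8.02 ± 0.24 h. Without the shallow control CT20 replicate 3, the lowest library with 9 counts, the control range was 2.62 log2 (adjusted p = 5.28e-07). The wave differed between the diets for 0.0127% of genes, not for Klb (difference in range -0.16 log2, adjusted p = 1). Genes most like Klb in SCN were Dnajb9, an endoplasmic reticulum chaperone (r = 0.894), Syt4 (r = 0.885) and Lpcat1 (r = 0.878).

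**Figure D5:**
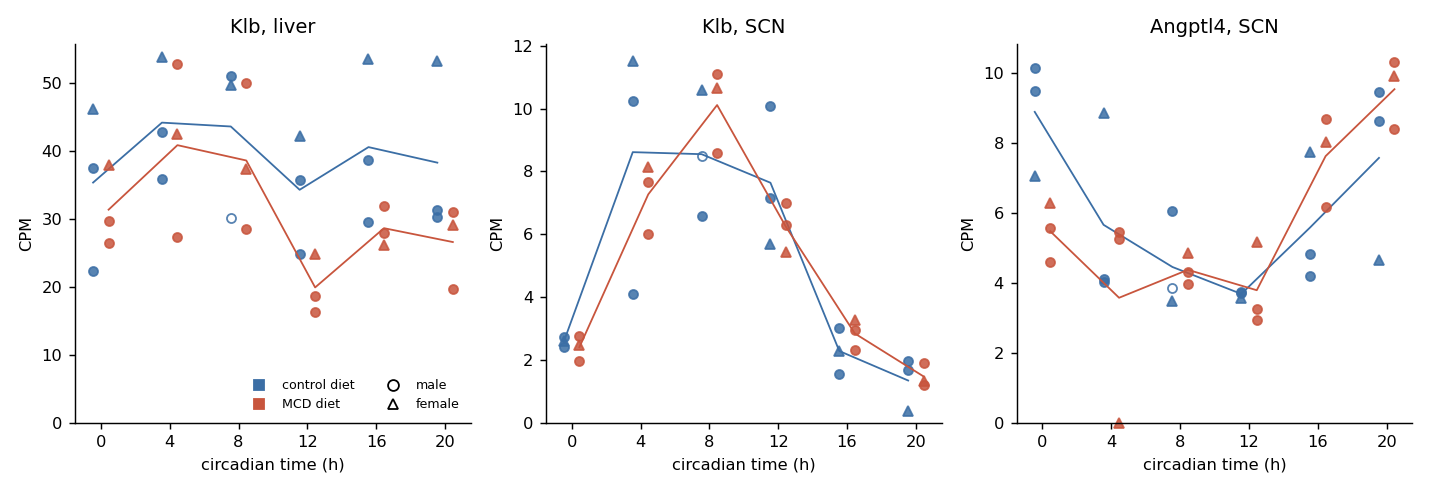
Klb in liver and SCN and Angptl4 in SCN (CPM) against circadian time (h), with symbols as in the plot of liver levels and lines through group means (n = 3). Klb in SCN is high from CT04 to CT12 on both diets, and MCD CT04 replicate 3 is listed at 0 for Angptl4.

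Angptl4 in SCN was at 3.47 to 10.1 CPM on the control diet. It was highest at CT00, with 9.48, 10.1 and 7.06 CPM, and on average lowest at CT12, with 3.75, 3.72 and 3.58 CPM. On MCD it was at 8.40, 10.3 and 9.91 CPM at CT20 and at 3.24, 2.95 and 5.18 CPM at CT12. MCD CT04 replicate 3, which lists 767 genes at 0, was at 0 for Angptl4 in the gene table, while its exon-bin file held 29 counts. With that library the wave was not called on the control diet (1.19 log2, edgeR adjusted p = 0.204) or on MCD (1.32 log2, adjusted p = 0.138). Without it both were called, with 1.20 log2 (adjusted p = 0.00248) and 1.09 log2 (adjusted p = 0.00757), and likewise without all libraries numbered 3 (1.32 log2, adjusted p = 0.000547, and 1.20 log2, adjusted p = 0.0015), and limma called both with all libraries. The fitted peak was at 22.5 ± 0.94 h on the control diet and at 17.6 ± 1.82 h on MCD, where the fit includes the library listed at 0. The wave of Angptl4 was not called as different between the diets. The exon-bin file of that library also correlated best with a gene column of another name, as did that of MCD CT20 replicate 2, the other 32 of 34 files with a numbered column being best with their own.

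Diet changed neither gene detectably in the SCN. The test called 10 of 15759 genes over the mean of the 6 times (0.0635%), with 746 at an unadjusted p below 0.05, 48 called by DESeq2 and 19 by limma, and neither Klb (0.00 ± 0.15 log2) nor Angptl4 (-0.09 ± 0.24 log2, or 0.0076 without MCD CT04 replicate 3) was among them with any of the 3 tools or at an unadjusted p below 0.05. At single times 0.00635% of genes were called at CT00, CT16 and CT20, 0.0444% at CT04, and 0 at CT08 and CT12. At CT08 and CT12 the unadjusted counts were 282 and 328, and DESeq2 called 5 genes at each. The lowest adjusted p of Klb or Angptl4 at a single time was 0.955. Of the lists of partner genes none held a called gene in SCN.

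Fgf21, Gdf15, Inhbe and Lepr, which the SCN gene table did not list, could be read from the exon-bin files of SCN. No count fell on Fgf21 or Inhbe in any of 36 files. Gdf15 was at 0 in 19 files and highest, with 51 counts, in MCD CT00 replicate 3. Lepr was at 0 in 5 files, with a median of 10.5 and a highest count of 45. In liver the same bins held 12 to 6662 counts of Fgf21 and 415 to 6864 of Lepr per library.

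The diet effect of Angptl4 differed between the tissues. In a model of all 72 libraries that treats liver and SCN as independent, 34.7% of 14491 genes had a different diet effect in the tissues. The SCN minus liver difference was -0.93 ± 0.29 log2 for Angptl4 (edgeR adjusted p = 0.00976), and -0.91 log2 without liver control CT08 replicate a. It was lost without the libraries numbered 2 (-1.09 log2, adjusted p = 0.0598) and was -0.57 log2 without those numbered 3 (adjusted p = 0.0253), which include the SCN library listed at 0 for Angptl4. For Klb it was 0.35 ± 0.18 log2 (adjusted p = 0.123), and it was called without the libraries numbered 2 (0.54 log2, adjusted p = 0.0410). The wave on the control diet, compared after the values were seen, differed between the tissues for 16.9% of genes (2455, falling to 603 without the libraries numbered 1 and 811 without those numbered 2), among them Klb (adjusted p = 1.16e-06) and Angptl4 (adjusted p = 0.00901). The fitted peaks of Angptl4 were at 10.9 h in liver and 22.5 h in SCN, though edgeR called neither control wave on its own with all libraries (DESeq2 called that in liver and limma that in SCN). The call of the difference was lost without the libraries numbered 1 (adjusted p = 0.255) or 2 (adjusted p = 0.126).

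Exon-bin counts were used to ask whether the make-up of the transcripts changed. Exons are split into bins wherever the set of transcripts that use them changes. In liver 3.88% of 14108 genes changed the relative use of their bins with diet, and none of the 6 did, each with an adjusted p of 1. No member had an unadjusted Simes p below 0.05, the gene-level F test, which called 851 genes, gave an adjusted p of 1 for each, and no other tool was run. Without the bin file of control CT08 replicate 1, which correlated best with gene column a of that group, the Simes adjusted p of Gdf15 was 0.882.

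Most counts on the alternative ends of Lepr in liver fell on short forms. Of the counts on the 3 ends, Lepr-203 held 94.5% ± 2.54 on the control diet (SD, n = 16) and 95.4% ± 1.34 on MCD (n = 18). The long form Lepr-201 held 2.26% ± 1.30 (0 to 4.49%) and 2.88% ± 1.24 (1.10% to 5.00%). The short form Lepr-202 held 3.29% ± 2.37 and 1.72% ± 1.21. The ends differ in length, at 2320 bases for Lepr-203, 188 for Lepr-202, of which 86 also belong to Lepr-206, and 905 for Lepr-201, so the shares are of counts and not of molecules. Summed over libraries, counts per base on the control diet were 2.59 for Lepr-203 (6012 counts), 0.968 for Lepr-202 (182 counts) and 0.170 for Lepr-201 (154 counts). On MCD they were 5.07, 1.05 and 0.397. Over the 102 bases of Lepr-202 alone they were 0.725 and 0.765.

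Between SCN and liver on the control diet 66.3% of 15731 genes differed in bin use. Among the members this held for Lepr (adjusted p = 2.24e-06), while the F test also called Klb (adjusted p = 0.0209), a call lost without the libraries of any 1 number (adjusted p = 0.0733 to 0.145). Fgf21 and Inhbe had 0 bin counts in all 36 SCN files and Gdf15 in 19, so this test could show nothing for Fgf21 and Inhbe and little for Gdf15. The bin of Lepr that differed most clearly was number 28, the end of Lepr-203 (chr4:101811348-101813667, GRCm38), with a relative use higher in SCN by 1.35 log2 (adjusted p = 4.87e-07). In the SCN the ends of Lepr held few counts: on the control diet 5 on Lepr-201 and 117 on Lepr-203 in 18 libraries together, and on MCD 20 and 114. Shares from so few counts were not compared between the diets. The call of bin 28 between the tissues rests on the same few SCN counts. The SCN was cut by laser and liver was a whole piece, and this difference cannot be told apart from that of tissue.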

How the data were processed

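RNA of 36 liver and 36 SCN samples was sequenced from stranded poly-A libraries. The authors deposited whole-number counts per gene for each tissue and counts per exon bin for each library. Trimmomatic, HISAT2, StringTie, DESeq2 and the build GRCm39 are named per the submitters' processing notes, without versions, while no source used here names the counter, its annotation or its strand setting. Bin numbers equalled those of GENCODE M21 (GRCm38), which gave the positions, and RefSeq (GRCm38.p6) gave the promoters. Of the bin files 70 were used, and 2 that break off early, of control liver at CT00, were not.

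Gene counts were scaled by TMM and tested in R 4.3.3 with the edgeR 4.0.16 quasi-likelihood test, with Benjamini-Hochberg adjustment over all genes tested, a threshold of 0.05, a minimum count of 10 in filterByExpr, the 12 diet and time groups, and sex as a term. Exon bins were tested with edgeR's diffSpliceDGE (Simes). DESeq2 1.42.0 and limma 3.58.1 were alternatives. Log2 CPM for correlations and fitted peaks used a prior count of 2. Nothing in the labels says whether libraries come from separate extractions, so p-values measure the spread between these libraries.

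The members and lists were chosen with earlier results of these data known. Named genes are the members, up to 3 called genes of each list with the largest liver effect, and the 3 genes most like each member. Fgfr4, Trem2, Marco, S100a8, S100a9, Lhx1 and Rgs16 are outside this rule and were named after their values were seen. Tests of sex and of the tissues' waves, and the low mt-Nd6 livers without control CT08 replicate a, were added after the data were seen. On simulated counts of 19851 genes the liver diet test recovered 77% of genes changed by 1 log2 and 93% of those changed by 2, with 7 false calls. Only 100 genes were changed by each size there, and no library was an outlier. In the data 46.6% of genes were called and control CT08 replicate a stood apart, so the simulation gives no error rate for them.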

Additional observations from a re-analysis of the deposited data

Results flagged for a closer look

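Between the tissues 3 values differed by a direct test. The diet effect on Angptl4 was lower in SCN than in liver, by -0.93 log2 (edgeR adjusted p = 0.00976; 0.0598 without the libraries numbered 2). The control wave differed between the tissues for Klb (adjusted p = 1.16e-06), with a steep course in SCN and a range of 0.20 log2 in liver. It also differed for Angptl4 (adjusted p = 0.00901), whose fitted peaks were at 10.9 h in liver and 22.5 h in SCN, but not without the libraries numbered 1 (adjusted p = 0.255) or 2 (adjusted p = 0.126). In edgeR neither control wave of Angptl4 was called on its own (adjusted p = 0.104 in liver and 0.204 in SCN), while DESeq2 called that in liver (adjusted p = 0.0384) and limma that in SCN (adjusted p = 0.00107). Both tests of the wave were chosen after the data were seen, and no explanation was tested.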

How the results depend on the processing

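Over 50 alternatives the mean liver effects of Fgf21, Gdf15 and Inhbe kept their direction and call, that of Angptl4 in 49, Klb in 46 and Lepr in 45. The cause of the changes below was not tested unless fewer libraries were used. Klb gave -0.11 log2 with library totals (adjusted p = 0.347) and -0.36 in the high mt-Nd6 kind alone (adjusted p = 0.159), Angptl4 0.43 in the high kind (adjusted p = 0.225), and Lepr 0.45 without a sex term (adjusted p = 0.125), 0.16 in the low kind (adjusted p = 0.682) and 1.20 in the high kind (adjusted p = 0.0852). With single libraries or numbers left out, Klb lay between -0.56 and -0.24 log2, Lepr between 0.33 and 0.88, Angptl4 between 0.51 and 1.09, and the tissue difference of Angptl4 between -1.16 and -0.57 and of Klb between 0.19 and 0.54. With library totals Fgfr3 was at 0.039 and Pcsk6 at 0.073 log2.

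Counts of called genes moved more. The liver mean effect called 4471 genes in the low kind and 5042 in the high kind. Library totals called 3971, 6475, 4162 and 3560 genes at CT00, CT12, CT16 and CT20. At CT08 DESeq2 called 651 and the fit without a sex term 140. The liver wave difference had 2060 calls by DESeq2 and 651 with the replicate block, the sexes' difference in diet effect 741 by DESeq2, and exon use 851 by the F test and 337 with a term for kind. With left-out libraries counts ranged from 84 to 3059 at CT00, 330 to 4249 at CT04, 8 to 1212 at CT08, 54 to 3810 at CT12, 323 to 3160 at CT16 and 237 to 2845 at CT20. They ranged from 565 to 3957 for the control wave, 2448 to 6240 for the MCD wave, 4 to 1243 for the wave difference, 229 to 497 for the sexes' difference in diet effect, 664 to 2478 for the liver sex difference, 206 to 701 for exon use and 2941 to 5547 for the tissues' difference in diet effect and 603 to 2377 for that in control wave.

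In SCN the mean effect called 48 genes by DESeq2, 19 by limma, 6 without a sex term, 4 without both same-named libraries and 4 with the replicate block. CT00 gave 3 with RLE factors, 29 by DESeq2, 4 by limma, 2 without both and 2 with the block, and CT04 3 with library totals, 21 by DESeq2, 2 without a sex term, 3 without both and 4 with the block. CT08 gave 5 by DESeq2, 2 without both and 2 with the block, CT12 5 by DESeq2 and 1 by limma, CT16 5 by DESeq2, and CT20 23 by DESeq2 and 2 by limma. The control wave gave 1149 without both and 1248 with the block, and the wave difference 7 by DESeq2 and 1 each without a sex term, without both and with the block. With left-out libraries the counts were 0 to 17 for the mean, 0 to 4 at CT00, 0 to 8 at CT04, 0 to 1 at CT12, 1 to 2 at CT16, 0 to 6 at CT20, 811 to 2621 for the control wave, 775 to 2911 for the MCD wave and 1 to 5 for the wave difference. Deviations of same-numbered samples of the 2 diets from their group means correlated by -0.313 to 0.219 in liver and -0.167 to 0.249 in SCN, so the numbers were not taken to pair samples.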
